A study of Mus musculus with 8 samples.

Results

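Capillary endothelial cells that carry *Plvap* and *Igfbp5* were examined in mouse kidney after ischemia-reperfusion injury (IRI), a stop and return of blood flow. The cells were chosen by their own counts. From the 90855 cells with more than 300 genes, fewer than 20000 counts and less than 25% mitochondrial counts, those were taken with at least 5 counts over *Flt1*, *Ptprb*, *Emcn*, *Adgrl4* and *Ldb2*, at least 2 counts over *Plvap*, *Igfbp5* and *Plpp1*, more counts of these than of *Sox17*, *Sema3g*, *Adamts9*, *Eln*, *Jam2* and *Fbxl7*, and at most 1 count each over the C1q genes, *Pax5* with *Themis*, and *Slc12a1* with *Lrp2*. This left 6574 cells, which were 7.24% of the cells past the limits (120281 barcodes in all) and 86.3% of the 7616 cells that met the endothelial score and the upper limits. The genes that pick and split endothelium are therefore not findings, and none of them enters a count of called genes below.

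Capillary endothelium lines the smallest vessels, passes water and solutes to the tissue and sets where leukocytes attach and leave the blood. In the kidney it takes on different forms. Peritubular capillaries surround the tubules and carry fenestrae closed by diaphragms, which are built from PLVAP, whereas mature glomerular capillaries have open fenestrae, largely lack PLVAP and express *Ehd3*. Loss of peritubular capillaries is a known feature of the passage from acute injury to chronic kidney disease.

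There were 7 conditions in male C57BL/6 mice, and each was 1 pool of cells from 3 mice. The control pool came from mice with untouched kidneys. The vehicle pools came from mice given DMSO and killed 1, 7 or 14 days after IRI of the left kidney, and the entospletinib pools from mice given the SYK inhibitor entospletinib by intraperitoneal injection, before IRI and, for the later days, repeatedly after it. SYK is a kinase that carries signals from immunoreceptors and is mainly expressed by leukocytes. Live cells had been sorted by scatter to enrich leukocytes, so that endothelial cells are what this gate let through, and their shares describe the sorted suspension and not the kidney. Each condition was barcoded in wells of its own, so the pool, the sort, the wells and the condition cannot be told apart. In these data a smaller number of endothelial cells in the kidney, a smaller share in the digest and a larger number of leukocytes would lower the share alike.

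The capillary cells held 18924138 counts, with 6216597 in the control, 482783 (vehicle, day 7) to 4262479 (vehicle, day 1) in the vehicle pools and 949386 (day 14) to 3192785 (day 7) in the entospletinib pools. There were 1913 control cells, 1083, 165 and 248 cells with vehicle and 1222, 1194 and 749 cells with entospletinib at days 1, 7 and 14. Their median depth was 3049 counts in the control, 2334 to 3606 with vehicle and 1090 (day 14) to 2448 with entospletinib, so the vehicle pools at days 7 and 14 and the entospletinib pool at day 14 give the least precise values. Levels are given as CPM, counts scaled to the same standard total in each pool, over the summed counts of the cells in a pool, with exact Poisson 95% intervals where shown. The SD is over the 8 sublibraries, each a portion of 1 mixed suspension, and covers technical error only, as do the intervals. Of 105340 combinations of well barcodes, 13712 occurred in more than 1 sublibrary, and each barcode was kept as 1 cell of its sublibrary. Levels in CPM are not scaled by transcript length, so they are compared between pools and not between genes.

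The cells were checked against endothelial genes that the rule did not use. The summed level of *Pecam1*, *Cdh5*, *Kdr*, *Tek*, *Tie1*, *Egfl7*, *Eng*, *Esam*, *Erg* and *Robo4* was 6402 to 8815 CPM over the 7 pools, against 102 to 356 CPM in the cells that are not endothelial, and all 10 genes were detected in every pool. *Pecam1*, the junction protein CD31, was at 1368 CPM in the control pool, 2027, 1251 and 1411 CPM in the vehicle pools and 1673, 1336 and 1145 CPM in the entospletinib pools. *Kdr*, the main VEGF receptor of endothelium, was at 1478 CPM in the control pool, 1061, 1143 and 909 CPM in the vehicle pools and 1038, 1757 and 1058 CPM in the entospletinib pools. Levels of the markers that chose the cells were high by construction. *Plvap* was at 1019 CPM in the control pool, 1271, 812 and 755 CPM in the vehicle pools and 1142, 745 and 745 CPM in the entospletinib pools. *Igfbp5*, a secreted binding protein of insulin-like growth factors, was at 3490.5 CPM in the control pool, 2695, 3316 and 2547 CPM in the vehicle pools and 3579, 5255 and 3365 CPM in the entospletinib pools. The endothelial label thus held in each pool. *Ehd3* was present as well, at 321 CPM in the control pool, 305, 398 and 153 CPM in the vehicle pools and 327, 674 and 220.1 CPM in the entospletinib pools, so the rule takes in cells with the glomerular marker, which are described further on.

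At the edge of the rule, 76 of the cells had an endothelial score of exactly 5, and 140 cells with a score of 3 or 4 that met the other limits were left out. With exactly 2 counts over *Plvap*, *Igfbp5* and *Plpp1* there were 93 cells, and 50 cells with 1 such count fell outside. Equal counts of both gene groups kept 110 cells out, and 181 cells stayed in by a difference of 1 count. The cells at a score of 5 had a median of 885 counts, so that shallow cells are the ones the rule divides least firmly.

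The capillary cells were fewest, relative to all cells past the limits, in the vehicle pools. They made up 17.1% of the control pool (exact Clopper-Pearson 95% interval 16.4 to 17.8, SD 1.18), then 4.82%, 2.70% and 1.44% of the vehicle pools and 8.70%, 15.7% and 6.17% of the entospletinib pools at days 1, 7 and 14. No sublibrary of a vehicle pool reached the lowest sublibrary of the entospletinib pool of the same day. On a log2 scale the share with entospletinib exceeded that with vehicle by 0.85 at day 1 (interval 0.74 to 0.97), 2.54 at day 7 (2.31 to 2.77) and 2.10 at day 14 (1.90 to 2.31), in 8 of 8 sublibraries each time. At day 7 the entospletinib share differed from the control share by -0.12, with 6 of 8 sublibraries below the control.

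The share of a pool in a leukocyte-enriched sort moves with every other cell in it. When cells with any count of the neutrophil genes *S100a8*, *S100a9*, *Csf3r*, *Retnlg*, *Cxcr2* and *Mmp9* were left out of the denominator, the ratio of entospletinib to vehicle became 0.13, 1.95 and 1.62 (log2) at days 1, 7 and 14, and that of vehicle to control went from -1.83 to -0.48 at day 1, from -2.66 to -2.06 at day 7 and from -3.57 to -3.26 at day 14. A cell with 1 count of any of these genes was left out, whatever its type. Capillary cells with such a count stayed in the numerator, so these values are not ratios of shares. At day 1 a count of *S100a9* was held by 256 of 1083 capillary cells with vehicle and 243 of 1222 with entospletinib. In the control it was held by 102 of 1913. On this measure little of the difference between treatments was left at day 1. At days 7 and 14 the values with entospletinib were still well above those with vehicle. Over the 3 same-day pairs of pools the mean log2 ratio of the shares, with all cells in the denominator, was 1.83. The share was higher with entospletinib in 3 of 3 pairs. The two-sided exact sign-flip permutation p was 0.25, which is the smallest that 3 pairs can give.

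A share with no leukocytes in its denominator is that of the capillary cells among both endothelial kinds, where the other kind (726 cells in all) met the mirrored rule, with at least 2 counts over *Sox17*, *Sema3g*, *Adamts9*, *Eln*, *Jam2* and *Fbxl7* and more of these than of the capillary genes. Capillary cells were 93.4% of both kinds in the control (92.2 to 94.4), 88.2%, 89.7% and 78.0% in the vehicle pools and 89.9%, 90.3% and 89.2% in the entospletinib pools. The vehicle pool at day 14 was the lowest (73.0 to 82.4), and its interval did not meet that of any other pool. The other 6 pools lay between 88.2% and 93.4%. The other kind had 135 of 11205 cells in the control against 145 of 22489, 19 of 6110 and 70 of 17261 cells with vehicle, so both kinds were less frequent in the vehicle pools than in the control.

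**Figure D1:**
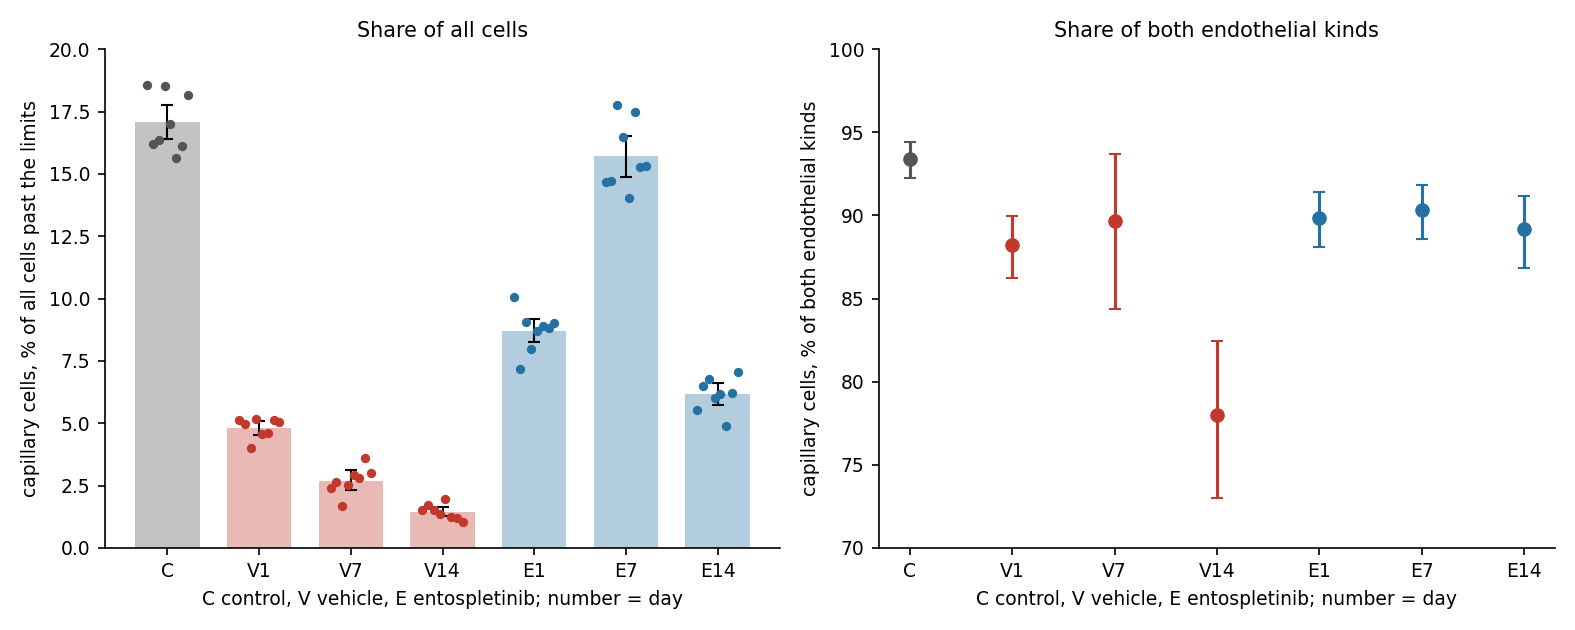
Capillary cells as a percentage of all cells past the limits (left; bars are pools, points the 8 sublibraries, error bars exact 95% intervals) and of both endothelial kinds (right; points are pools, axis from 70 to 100%), for the control and for vehicle and entospletinib at days 1, 7 and 14. The vehicle pools lie between 4.82% (day 1) and 1.44% (day 14) of all cells, and the vehicle pool at day 14 is the lowest on the right at 78.0%.

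Expression was then compared between pools for 3605 genes (mean level 50 CPM or more). Each value is a relative log2 ratio, the log2 ratio of CPM minus its median over all tested genes, which was between -0.12 and 0.12 in the 6 comparisons. A gene is called when its ratio is at least 2-fold in the same direction in all cells and in both sets of 4 sublibraries. Because each condition is 1 pool, a call says that 2 pools differed in both sets of sublibraries and not that 2 treatments did. All 3 comparisons of vehicle with control share the control pool, and each vehicle pool stands in a comparison with entospletinib as well.

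Against the control, 68 genes were called higher (1.89% of those tested) and 37 lower (1.03%) with vehicle at day 1, 36 higher (0.999%) and 15 lower (0.416%) at day 7, and 50 higher (1.39%) and 24 lower (0.666%) at day 14. With entospletinib against vehicle of the same day, 12 genes were higher (0.333%) and 0 lower (0%) at day 1, 19 higher (0.527%) and 36 lower (0.999%) at day 7, and 69 higher (1.91%) and 24 lower (0.666%) at day 14. These shares are the background for the gene groups below. The split by direction moved when cells were left out and with the scaling. Without marked doublets it was 40 higher and 39 lower with vehicle at day 1, 11 and 14 at day 7 and 31 and 21 at day 14, and 19 and 20 with entospletinib against vehicle at day 7. With stricter limits on other cell types' markers the vehicle splits were 41 and 37, 13 and 14, and 23 and 24, and that of entospletinib at day 7 was 17 and 21. By plain CPM ratios, not set against the median gene, it was 90 and 29 with vehicle at day 1, 31 and 22 at day 7, and 5 and 2 and then 29 and 30 with entospletinib at days 1 and 7. With TMM scaling it was 60 and 34 with entospletinib at day 14. In cells thinned to 500 counts the vehicle pools had 48 higher and 34 lower at day 1, 57 and 57 at day 7, and 46 and 42 at day 14. Thinned entospletinib pools had 10 and 3, then 64 and 68, then 80 and 64.

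Among the genes called higher after IRI, most had their highest levels outside the endothelium. In the vehicle pools 47 of 68, 32 of 36 and 37 of 50 of the genes called higher at days 1, 7 and 14 had a higher level in the non-endothelial cells of the same pool, against 34.8%, 32.6% and 36.3% of all tested genes. *Il1b*, the cytokine interleukin 1 beta, was at 68.5 CPM in the control pool, 471, 543 and 341 CPM in the vehicle pools at days 1, 7 and 14, and 338, 137 and 122 CPM in the entospletinib pools at those days in the capillary cells. In the non-endothelial cells it was at 520.1 CPM in the control pool, 3922, 2171 and 1597 CPM in the vehicle pools and 2205, 750.1 and 621 CPM in the entospletinib pools. All 3 vehicle pools were above the control in both kinds of cell, and the capillary cells were lower than the others everywhere.

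*S100a9*, a calcium-binding protein of neutrophils, was at 16.7 CPM in the control pool, 157, 72.5 and 32.2 CPM in the vehicle pools and 298, 25.4 and 34.8 CPM in the entospletinib pools in the capillary cells. Outside it was at 27.9 CPM in the control pool, 1314, 242 and 92.9 CPM in the vehicle pools and 1201, 49.5 and 49.2 CPM in the entospletinib pools, and the pools at day 1 were the highest in both kinds of cell. The summed level of 6 neutrophil genes in the capillary cells was 40.7 CPM in the control pool, 352, 145 and 94.0 CPM in the vehicle pools and 510, 66.1 and 75.8 CPM in the entospletinib pools, and outside it ran from 105 CPM in the control to 2963 CPM in the vehicle pool at day 1, with no gene of the list at 0. Doublets were marked among 1.83% of the capillary cells in the control pool, 5.54%, 8.48% and 11.3% in the vehicle pools and 7.36%, 2.51% and 8.01% in the entospletinib pools. With these cells removed, *Il1b* at vehicle day 7 went from 3.06 to 0.15 on the relative log2 scale, and 196 of its 262 counts in that pool lay in 5 cells. *Thbs1*, thrombospondin 1, was at 25.3 CPM in the control pool, 359, 78.7 and 166 CPM in the vehicle pools and 135, 36.3 and 46.3 CPM in the entospletinib pools in the capillary cells, and its ratio at day 7 went from 1.73 to 0.41 without marked doublets, whereas at day 1 (3.71) it stayed between 2.98 and 3.83 under all 19 alternatives. Outside the endothelium *Thbs1* was at 54.5 CPM in the control pool and 2850 CPM in the vehicle pool at day 1. In the capillary cells of that vehicle pool 317 of its 1529 counts lay in 5 cells. What part RNA from other cells has in these levels was not tested.

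**Figure D2:**
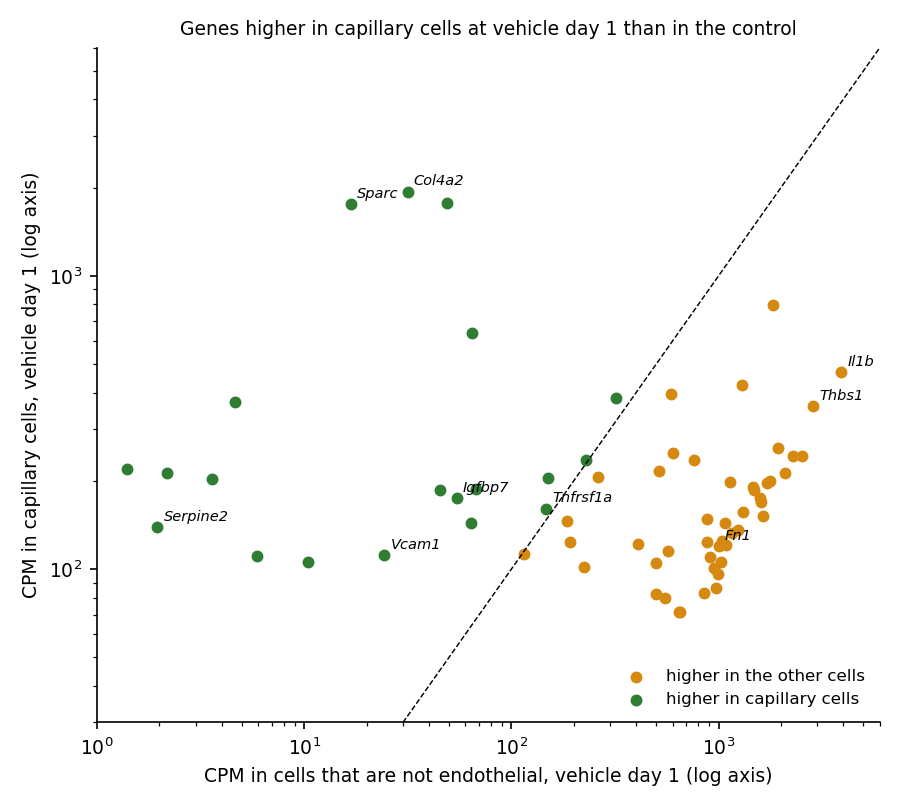
Level of the 68 genes called higher in capillary cells at vehicle day 1 than in the control, in capillary cells (vertical, CPM, log axis) and in the non-endothelial cells of the same pool (horizontal, CPM, log axis). The dashed line marks equal levels, and 47 of the 68 genes (orange) lie to its right, with a higher level outside the endothelium.

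Of the 37, 15 and 24 genes lower with vehicle, 10, 2 and 3 had a higher level outside the endothelium of the control pool, against 37.0% of all tested genes.

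With vehicle, 34 genes were called higher on at least 2 days and were above the control on all 3. Ordered by the smallest of their 3 ratios, the first 5 were *Ptgs2*, *Il1b*, *Fn1*, *Il1r2* and *Gda*. *Ptgs2*, the inducible cyclooxygenase, was at 10.8 CPM in the control pool, 71.3, 139 and 67.1 CPM in the vehicle pools and 39.7, 17.5 and 30.5 CPM in the entospletinib pools. *Fn1*, the matrix protein fibronectin, was at 11.6 CPM in the control pool, 119.9, 51.8 and 161 CPM in the vehicle pools and 42.3, 11.9 and 12.6 CPM in the entospletinib pools. The vehicle pool was above the entospletinib pool of the same day for both genes. For *Fn1* at day 7 the ratio of entospletinib to vehicle (-2.26) became 0.75 in thinned cells and -0.79 without marked doublets. In the vehicle pools 19 of 25 *Fn1* counts at day 7 and 89 of 120 at day 14 lay in 5 cells. So did 53 of 67 *Ptgs2* counts at vehicle day 7, where the ratio of *Ptgs2* to the control (3.76) was as low as 1.27 under the alternatives. *Gda*, guanine deaminase, was at 18.3 CPM in the control pool, 198, 80.8 and 75.2 CPM in the vehicle pools and 191, 45.1 and 51.6 CPM in the entospletinib pools. *Il1r2*, the decoy receptor of interleukin 1, was at 20.4 CPM in the control pool, 196, 84.9 and 114 CPM in the vehicle pools and 116, 58.6 and 34.8 CPM in the entospletinib pools. The control was the lowest pool for these 4 genes. Outside the endothelium *Gda* was at 58.8 CPM in the control pool, 1131, 284 and 193 CPM in the vehicle pools and 649, 152 and 139.6 CPM in the entospletinib pools. *Il1r2* was at 123 CPM in the control pool, 1711, 703 and 541 CPM in the vehicle pools and 707, 269.6 and 131 CPM in the entospletinib pools there. The level outside in the vehicle pools was 648, 479 and 298 CPM for *Ptgs2* and 1002, 847 and 239 CPM for *Fn1*. In thinned cells *Fn1* at day 7 changed direction, to -1.19 against the control. Without marked doublets 3 of these genes fell short of 2-fold at day 7, *Fn1* at 0.76, *Gda* at 0.82 and *Il1r2* at 0.17, and *Ptgs2* at day 1 was at 0.85 under stricter marker limits.

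Other genes called higher were at a higher level in the capillary cells than outside. *Inhbb*, *Osmr* and *Zfp521*, which encode a subunit of activins and inhibins, the oncostatin M receptor and a zinc finger protein, were in that group with vehicle at days 1 and 14, and *Sema5a*, a semaphorin, at days 7 and 14. *Sema5a* was also called higher with entospletinib than with vehicle at day 7. The highest ratio of entospletinib to vehicle at day 14 was that of *Klk1* (4.42), a kallikrein of the distal nephron, with 221 of its 275 counts in 5 cells.

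Glucocorticoids act through a receptor that enters the nucleus and switches on a small set of genes in most cell types, endothelium included. Of 12 listed genes 6 were tested, and 1, 3 and 2 of them were called lower with vehicle than in the control at days 1, 7 and 14, with 0 higher and medians of -0.54, -1.22 and -0.95. At day 1 *Sgk1* was the 1 gene of the 6 above the median gene, and at days 7 and 14 all 6 were below it. Against vehicle, 1, 1 and 4 of the 6 were called higher with entospletinib, with 0 lower and medians of 0.31, 0.93 and 1.72, and 5, 6 and 6 of them were above the median gene.

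*Zbtb16* (chr9:48654297-48836222, minus strand, mm10) encodes the transcription factor PLZF and is a direct target of the glucocorticoid receptor. It was at 444 CPM in the control pool, 24.2, 26.9 and 40.3 CPM in the vehicle pools at days 1, 7 and 14, and 51.7, 172 and 787 CPM in the entospletinib pools at those days. The control value had a Poisson interval of 428 to 461 CPM and an SD of 35.6, the vehicle value at day 1 an interval of 19.7 to 29.3 CPM, and the entospletinib value at day 14 an interval of 731 to 845 CPM. The control and the entospletinib pool at day 14 were high, all 3 vehicle pools were low, and the entospletinib pools at days 1 and 7 lay between. The relative log2 ratios to the control were -4.31, -3.92 and -3.44 with vehicle, and those of entospletinib to vehicle were 1.22, 2.49 and 4.32, each with 8 of 8 sublibraries in the same direction and each called.

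The same pools were high at equal depth. With every capillary cell thinned to 500 counts, 18.7% of the control cells held a *Zbtb16* count, against 1.02%, 2.42% and 1.61% in the vehicle pools and 1.72%, 8.04% and 34.9% in the entospletinib pools, the last in the pool with the lowest depth. Cells with fewer counts were left out, which kept 736 of 749 cells in that pool and 1220 of 1222 at entospletinib day 1. Without thinning, 988 of 1913 control cells, 73 of 1083, 12 of 165 and 27 of 248 vehicle cells and 109 of 1222, 307 of 1194 and 389 of 749 entospletinib cells held a count. The non-endothelial cells, thinned alike, held it in 10.4%, then 3.27%, 3.06% and 3.80%, and 5.59%, 7.49% and 9.14% of cells, so that the shares in the vehicle pools and in the entospletinib pool at day 1 did not exceed those of other cells. In the other kind of endothelial cell *Zbtb16* was at 476 CPM in the control pool, 38.9, 13.2 and 66.4 CPM in the vehicle pools and 70.01, 189 and 713 CPM in the entospletinib pools, the same order of pools apart from vehicle days 1 and 7. The ratio of entospletinib to vehicle at day 1 was 0.97 with marked doublets removed, just under 2-fold, and the other 5 kept their calls.

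*Fkbp5* (chr17:28399094-28517527, minus strand), a co-chaperone of the glucocorticoid receptor, was at 302 CPM in the control pool, 256, 87 and 227 CPM in the vehicle pools and 423, 173 and 716 CPM in the entospletinib pools. It was lowest in the vehicle pool at day 7 and highest in the entospletinib pool at day 14, and within each day the entospletinib pool was above the vehicle pool, by 0.85, 0.85 and 1.71. Only the last of these and the difference of vehicle from control at day 7 (-1.71) were called. Outside the endothelium it was at 258 CPM in the control pool, 148, 58.4 and 71.4 CPM in the vehicle pools and 176, 151 and 448 CPM in the entospletinib pools, so that the high value of the entospletinib pool at day 14 was shared by other cells.

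*Tsc22d3*, which encodes the anti-inflammatory leucine zipper protein GILZ, was at 64.7 CPM in the control pool, 34.02, 53.9 and 25.5 CPM in the vehicle pools and 42.3, 79.2 and 91.6 CPM in the entospletinib pools. *Sult1a1*, a sulfotransferase, was at 79.1 CPM in the control pool, 62.6, 26.9 and 21.5 CPM in the vehicle pools and 55.6, 67.03 and 70.6 CPM in the entospletinib pools. *Sult1a1* was called lower with vehicle at days 7 and 14 (-1.43 and -1.83), and both genes were called higher with entospletinib at day 14 (1.87 and 1.74), and the ratio of *Tsc22d3* became 0.85 in thinned cells. Outside the endothelium *Tsc22d3* was at 77.9 CPM in the control pool, 73.5, 39.9 and 49.3 CPM in the vehicle pools and 65.1, 68.2 and 107 CPM in the entospletinib pools. *Klf9* and *Sgk1*, a transcription factor and a kinase, were not called in any comparison, although their levels varied. *Klf9* was at 233 CPM in the control pool, 162, 109.8 and 153 CPM in the vehicle pools and 158, 244 and 213 CPM in the entospletinib pools. *Sgk1* was at 190.3 CPM in the control pool, 239.8, 168 and 146 CPM in the vehicle pools and 250.1, 307 and 257 CPM in the entospletinib pools. Each of the 6 tested genes had its lowest level of the 7 pools in a vehicle pool. As 3 of the 7 pools are vehicle pools and 2 of these are shallow, this is common to an unknown share of genes, which was not counted.

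**Figure D3:**
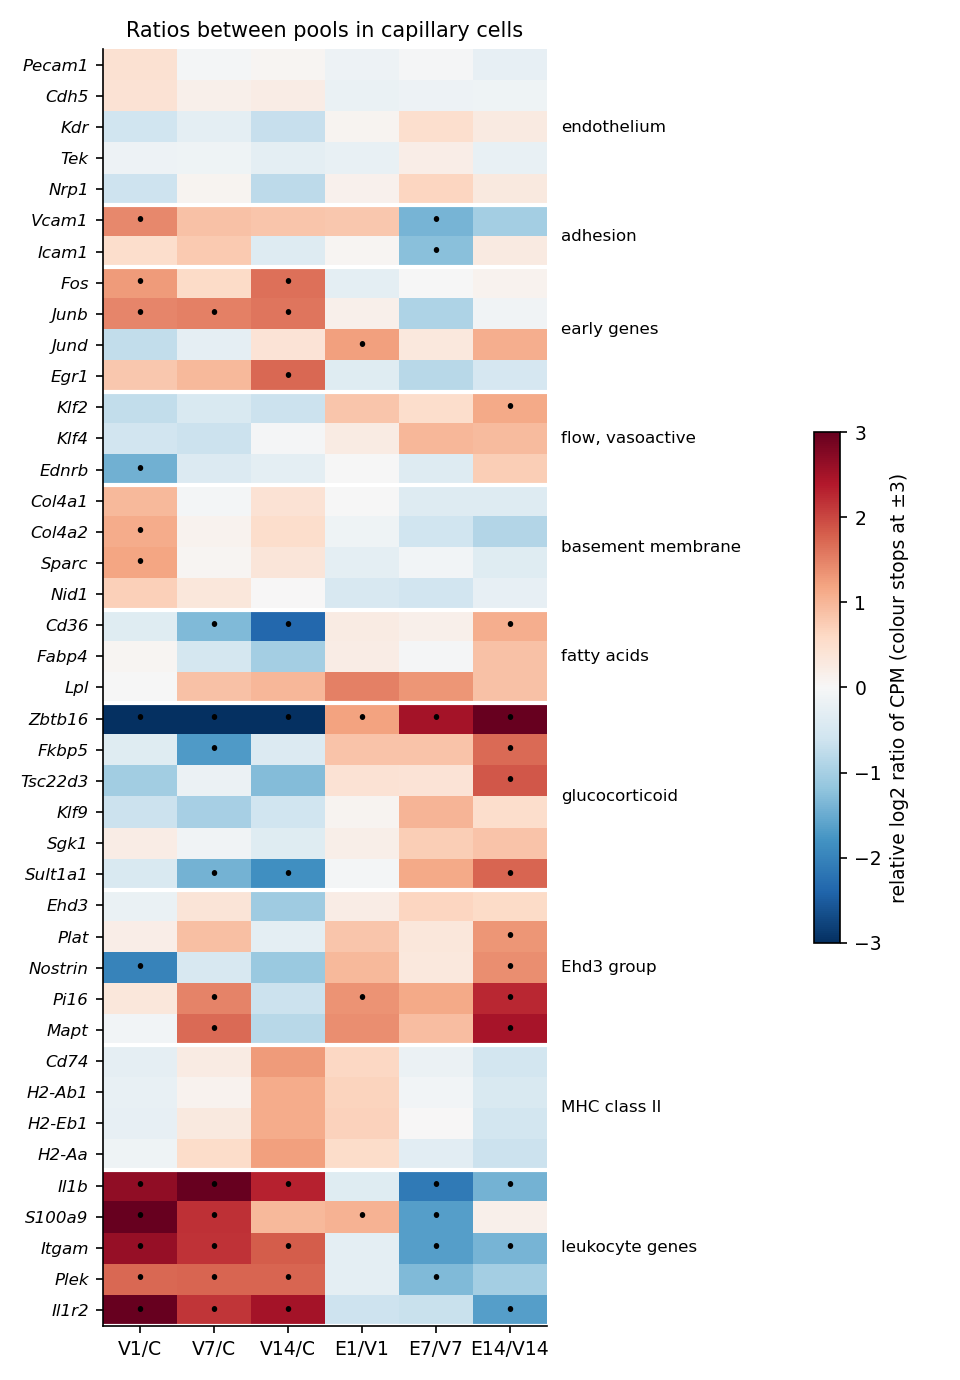
Relative log2 ratios of CPM between pools in capillary cells, with genes in rows and the 6 comparisons in columns (C control, V vehicle, E entospletinib, number the day), red higher and blue lower in the first-named pool, and dots at called genes. *Zbtb16* is blue in all 3 columns of vehicle over control and red in all 3 of entospletinib over vehicle, and the leukocyte genes are red in the former.

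Genes of vascular tone and flow were examined next. *Ednrb* (chr14:103814625-103844402, minus strand), the endothelin B receptor that clears endothelin and promotes nitric oxide release, was at 505 CPM in the control pool, 202, 362 and 412 CPM in the vehicle pools and 183, 301 and 659 CPM in the entospletinib pools. Both pools at day 1 were the lowest, and the vehicle pool was called lower than the control (-1.44, 8 of 8 sublibraries). The difference between both treatments at day 1 was -0.02. *Edn1*, which encodes the vasoconstrictor endothelin 1, was below the mean level for testing, at 3.54 CPM in the control pool, 57.5, 6.21 and 12.1 CPM in the vehicle pools and 12.03, 5.32 and 3.16 CPM in the entospletinib pools. Its level was highest in the vehicle pool at day 1, where 245 counts lay in 114 of 1083 cells, and the other 6 pools were at 12.1 CPM or less.

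*Klf2* (chr8:72319033-72321656, plus strand), a transcription factor induced by laminar flow, was at 135 CPM in the control pool, 87.7, 93.2 and 85.9 CPM in the vehicle pools and 143, 149 and 182 CPM in the entospletinib pools. The 3 vehicle values were the lowest of the 7. Entospletinib exceeded vehicle by 0.83, 0.54 and 1.13, of which the last was called (0.97 without sublibrary s2). *Klf4*, a related factor, was at 69.8 CPM in the control pool, 50.7, 41.4 and 67.1 CPM in the vehicle pools and 54.95, 92.1 and 126 CPM in the entospletinib pools and was not called. Of 11 tested genes in the list of flow response and vasoactive genes, *Ednrb* at vehicle day 1 and *Klf2* at entospletinib day 14 were the only calls between pools. *Nos3*, the endothelial nitric oxide synthase, was at 91.4 CPM in the control pool, 112, 95.3 and 101 CPM in the vehicle pools and 113, 92.1 and 90.6 CPM in the entospletinib pools.

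Some basement membrane genes were higher at day 1 after IRI. *Col4a1* and *Col4a2* encode the chains of the main collagen IV of vessel basement membranes, and *Sparc* a collagen-binding matrix protein. *Sparc* (chr11:55394500-55423183, minus strand) was at 717 CPM in the control pool, 1757, 704 and 919.8 CPM in the vehicle pools at days 1, 7 and 14, and 1319, 726 and 694 CPM in the entospletinib pools at those days. *Col4a2* was at 822 CPM in the control pool, 1938, 843 and 1180.2 CPM in the vehicle pools and 1639, 610.1 and 615 CPM in the entospletinib pools. *Col4a1* was at 1014 CPM in the control pool, 2156, 926 and 1375 CPM in the vehicle pools and 1964, 778 and 1010.1 CPM in the entospletinib pools. For each of these genes both pools at day 1 were the highest of the 7, and the groups of day 1 and of later days did not overlap. They were chosen from a list of 14 genes, and the share of all tested genes that separate in this way was not counted. Of the 11 tested genes of the list, 7 were above the median gene with vehicle at day 1, and their median was 0.19. *Col4a2* and *Sparc* were called higher with vehicle at day 1 (1.12 and 1.18), which made 2 of 11 tested genes of the list, and *Col4a1* was below 2-fold (0.97). Outside the endothelium *Sparc* was at 10.4 to 29.9 CPM. With entospletinib against vehicle at day 1, *Col4a1* differed by -0.01, *Col4a2* by -0.12 and *Sparc* by -0.29.

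*Serpine2*, a protease inhibitor that blocks thrombin and plasminogen activators, was at 23.3 CPM in the control pool, 139, 29 and 157 CPM in the vehicle pools and 107, 49.5 and 52.7 CPM in the entospletinib pools, against 1.11 to 8.29 CPM outside. It was called higher with vehicle at days 1 and 14 (2.46 and 2.76), and the lower value with entospletinib at day 14 (-1.51) became -0.42 when cells with more than 1 count of other cell types' markers were left out and -0.05 in thinned cells. *Igfbp7*, a secreted binding protein of the vessel wall, was at 62.9 CPM in the control pool, 175, 31.1 and 312 CPM in the vehicle pools and 264, 68.3 and 100.1 CPM in the entospletinib pools, and its lower value with entospletinib at day 14 (-1.58) became -0.51 under the same marker limits. In the vehicle pool at day 14 these values stood beside stroma genes: *Col1a2* had 172 counts in 8 of 248 cells there and at most 24 counts in any other pool. The summed level of 7 stroma genes was 439 CPM in that pool, 56.9 CPM with entospletinib at day 14 and 3.52 to 11.7 CPM in the other pools, and the part of these few cells in the other values of the pool was not tested, apart from the alternative just given.

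**Figure D4:**
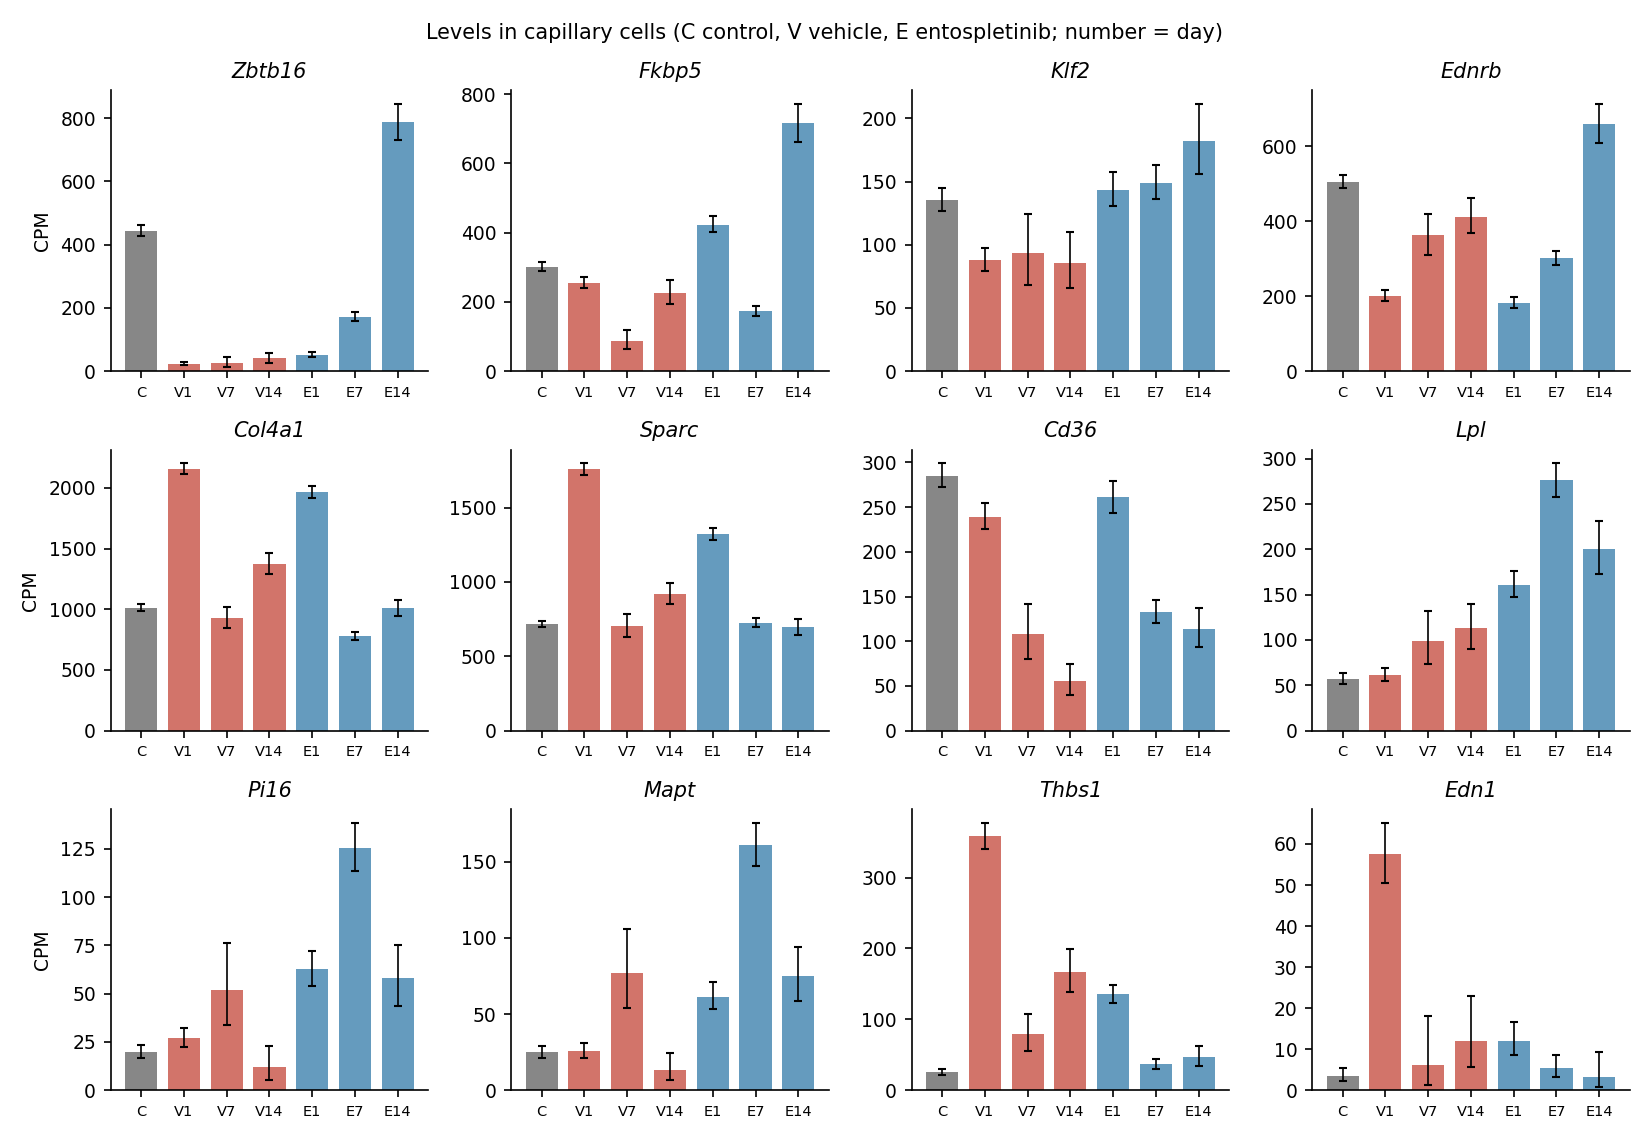
Levels of 12 genes in the summed capillary cells of each pool (CPM, bars from 0, exact Poisson 95% intervals). *Zbtb16* is at 444 CPM in the control and at most 40.3 CPM in the vehicle pools, *Col4a1* and *Sparc* are highest in both pools at day 1, and *Lpl*, *Pi16* and *Mapt* are higher with entospletinib than with vehicle at each day.

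Of 6 tested genes of leukocyte adhesion, 2, 1 and 1 were called higher with vehicle at days 1, 7 and 14, and 2 were called lower with entospletinib than with vehicle at day 7. *Vcam1*, the vascular cell adhesion molecule, was at 38.1 CPM in the control pool, 112, 66.3 and 67.1 CPM in the vehicle pools and 180.1, 27.9 and 31.6 CPM in the entospletinib pools in the capillary cells. Both pools at day 1 were the highest, and the entospletinib pools at days 7 and 14 were the lowest with the control. Vehicle was called above control at day 1 (1.43) and entospletinib below vehicle at day 7 (-1.39; -0.62 in thinned cells). Outside the endothelium *Vcam1* was at 49.1 CPM in the control pool, 24.4, 18.6 and 49.6 CPM in the vehicle pools and 28.6, 29.5 and 58.1 CPM in the entospletinib pools. *Icam1*, the ligand of leukocyte integrins, was at 71.4 CPM in the control pool, 112, 116 and 53.7 CPM in the vehicle pools and 108, 53.6 and 62.1 CPM in the entospletinib pools in the capillary cells. Outside it was at 45.2 CPM in the control pool, 117, 142 and 138 CPM in the vehicle pools and 64.3, 55.6 and 51.5 CPM in the entospletinib pools, above the capillary cells in the vehicle pools, and its call at day 7 (-1.25) became -0.66 without marked doublets. *Cd44*, a receptor for hyaluronan that leukocytes also carry, was at 28.8 CPM in the control pool, 212, 89.1 and 103 CPM in the vehicle pools and 118, 44.8 and 62.1 CPM in the entospletinib pools in the capillary cells. Outside it was at 279.9 CPM in the control pool, 2086, 1071 and 498 CPM in the vehicle pools and 862, 380.4 and 238 CPM in the entospletinib pools. It was called higher with vehicle at each day (2.76, 1.71 and 1.85), and without marked doublets its ratios at days 7 and 14 became -0.17 and 0.38. *Selp* and *Sele*, the selectins that start leukocyte rolling, were in few cells. *Selp* had 76 counts in 27 cells with vehicle and 75 counts in 46 cells with entospletinib at day 1, and 43 counts in 8 of 248 cells with vehicle at day 14, against 1 count in each of the entospletinib pools at days 7 and 14. Of those 43 counts 25 lay in 1 cell and 40 in 5 cells.

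Antigen presentation and interferon genes were rarely called. Of 7 tested genes of the MHC class I pathway 0 were called, and all 7 were below the median gene with vehicle at days 7 and 14 (medians -0.40 and -0.44) and above it with entospletinib against vehicle at day 14 (median 0.55). *H2-K1* was at 365 CPM in the control pool, 440.4, 286 and 291 CPM in the vehicle pools and 459, 335 and 415 CPM in the entospletinib pools. The 4 tested genes of the MHC class II pathway, which leukocytes express at far higher levels, had a median of 1.18 with vehicle at day 14 and none was called. *Cd74* was at 214 CPM in the control pool, 191, 238 and 513 CPM in the vehicle pools and 269, 231 and 339 CPM in the entospletinib pools in the capillary cells. Outside it was at 3443 CPM in the control pool, 1549, 2361 and 4150.3 CPM in the vehicle pools and 2359, 4056 and 2721 CPM in the entospletinib pools. Of 11 tested interferon response genes, *Ifit2* was called lower with vehicle at day 1 (-1.20) and *Gbp3* at day 7 (-1.36), and 2, 0 and 3 of the 11 were above the median gene with vehicle at the 3 days. *Gbp3* became -0.82 in thinned cells.

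Immediate early genes, which respond within minutes to stress and to tissue digestion, were examined as a list. Of 8 tested genes 2, 1 and 3 were called higher with vehicle at days 1, 7 and 14 and 0 lower. *Junb* was at 35.4 CPM in the control pool, 105, 95.3 and 107 CPM in the vehicle pools and 107, 55.4 and 95.9 CPM in the entospletinib pools. *Fos* was at 31.4 CPM in the control pool, 82.3, 43.5 and 98.02 CPM in the vehicle pools and 62.1, 48.2 and 101 CPM in the entospletinib pools. The control was the lowest pool for both. Outside the endothelium *Fos* was at 170.2 CPM in the control pool, 500.4, 319 and 389 CPM in the vehicle pools and 338, 259.7 and 233 CPM in the entospletinib pools, and its ratio at day 1 (1.28) became 0.26 in thinned cells and 0.68 without marked doublets. *Egr1*, called at day 14 (1.73), was at 0.11 in thinned cells. *Jund*, at 95.2 CPM in the control pool, 61.2, 74.6 and 126 CPM in the vehicle pools and 131, 103 and 259 CPM in the entospletinib pools, was called higher with entospletinib than with vehicle at day 1 (1.22). Levels of *Junb* were higher outside the endothelium (149 CPM in the control pool, 497, 387 and 345 CPM in the vehicle pools and 365, 226 and 238 CPM in the entospletinib pools), and its calls at all 3 days were lost in thinned cells, with ratios of 0.84, 0.43 and 0.86.

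Genes of fatty acid handling differed from one another. *Cd36* (chr5:17781690-17888801, minus strand), the fatty acid translocase of capillaries, was at 285 CPM in the control pool, 239.5, 108 and 55.1 CPM in the vehicle pools and 261, 132 and 114 CPM in the entospletinib pools. It was called lower with vehicle at days 7 and 14 (-1.32 and -2.35). In the entospletinib pools it was near the control at day 1 and below it at days 7 and 14, and the difference from vehicle at day 14 (1.09) was called but became 0.90 without sublibrary s8. Outside the endothelium *Cd36* was at 234 CPM in the control pool, 301, 126 and 112 CPM in the vehicle pools and 254, 161 and 109 CPM in the entospletinib pools. *Fabp4*, a fatty acid carrier, was at 491 CPM in the control pool, 554, 325 and 240.3 CPM in the vehicle pools and 589.9, 348 and 429 CPM in the entospletinib pools and was not called. *Lpl* (chr8:68880491-68907448, plus strand), the lipase that frees fatty acids from lipoproteins at the vessel surface, was at 57.3 CPM in the control pool, 61.5, 99.4 and 113 CPM in the vehicle pools and 161, 276 and 200.1 CPM in the entospletinib pools, lowest in the control and in the vehicle pool at day 1 and highest in the entospletinib pools. *Lpl* was also measured outside the endothelium at 306 CPM in the control pool, 206, 254 and 241 CPM in the vehicle pools and 335, 259 and 268 CPM in the entospletinib pools, where its levels did not follow that order.

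Several further genes were lower in the vehicle pools. *Igf1*, insulin-like growth factor 1, was at 112 CPM in the control pool, 37.5, 39.4 and 42.97 CPM in the vehicle pools and 49.8, 47.6 and 23.2 CPM in the entospletinib pools. It stood low in all 6 injured pools and was called lower with vehicle at all 3 days (-1.69, -1.40 and -1.36). Outside it was at 25.5 CPM in the control pool, 21.2, 33.8 and 52.05 CPM in the vehicle pools and 19.8, 36.8 and 20.9 CPM in the entospletinib pools. *Bcl2l1*, which encodes the survival protein BCL-XL, was at 434 CPM in the control pool, 322, 186 and 150.4 CPM in the vehicle pools and 398, 316 and 409.7 CPM in the entospletinib pools. It was called lower with vehicle at days 7 and 14 (-1.14 and -1.52) and higher with entospletinib than with vehicle at day 14 (1.496), with 8 of 8 sublibraries in that direction. Outside the endothelium it was at 159 CPM in the control pool, 377, 188 and 149.5 CPM in the vehicle pools and 308, 164 and 129.9 CPM in the entospletinib pools. *Trib2*, a pseudokinase, was at 94.9 CPM in the control pool, 46.9, 41.4 and 29.5 CPM in the vehicle pools and 65.03, 74.9 and 80.1 CPM in the entospletinib pools and called lower with vehicle at all 3 days (-1.13, -1.09 and -1.65), none of which was kept in thinned cells (-0.70, -0.21 and -0.42). *Lrrc3b*, a membrane protein with leucine-rich repeats, was at 303 CPM in the control pool, 94.3, 203 and 63.1 CPM in the vehicle pools and 122, 345 and 226 CPM in the entospletinib pools, lowest in the vehicle pools at days 1 and 14. *Cyp26b1*, which breaks down retinoic acid, was at 254 CPM in the control pool, 186, 99.4 and 33.6 CPM in the vehicle pools and 196, 165 and 164 CPM in the entospletinib pools. The vehicle pool at day 14 was the lowest for *Bcl2l1* and for *Cyp26b1*, whose level outside the endothelium was 0.954 to 9.61 CPM. *Cavin2*, a coat protein of caveolae, was at 150.4 CPM in the control pool, 122, 147 and 48.3 CPM in the vehicle pools and 124, 212 and 137 CPM in the entospletinib pools, called lower with vehicle at day 14 (-1.62) and higher with entospletinib than with vehicle on that day (1.54), the only called gene of 7 tested for fenestrae and caveolae.

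Of 12 listed genes of tip cells and angiogenic sprouting 7 were tested, of which 0, 0 and 1 were called higher with vehicle than in the control at days 1, 7 and 14 and 0, 2 and 1 lower with entospletinib than with vehicle. The 2 at day 7 were *Aplnr* and *Trp53i11*, the latter at -1.55 (-0.99 in thinned cells). *Aplnr*, the apelin receptor of sprouting and venous endothelium, was at 50.2 CPM in the control pool, 42.7, 68.4 and 105 CPM in the vehicle pools and 35.8, 26.9 and 29.5 CPM in the entospletinib pools, called above control with vehicle at day 14 (1.07; 0.84 without sublibrary s4) and below vehicle with entospletinib at days 7 and 14 (-1.48 and -1.76). *Apln*, its ligand, and *Angpt2*, the destabilising ligand of the TIE2 receptor, were too low to be tested and were highest in the vehicle pool at day 1, with *Apln* at 14.2 CPM in the control pool, 95.2, 16.6 and 10.7 CPM in the vehicle pools and 42.9, 1.57 and 3.16 CPM in the entospletinib pools. *Angpt2* was at 25.9 CPM in the control pool, 112, 6.21 and 22.8 CPM in the vehicle pools and 37.1, 10.3 and 14.7 CPM in the entospletinib pools. *Hes1*, a target of Notch, was at 43.8 CPM in the control pool, 56.5, 22.8 and 46.99 CPM in the vehicle pools and 61.5, 78.9 and 67.4 CPM in the entospletinib pools and called higher with entospletinib at day 7 (1.61). Of 6 tested genes of VEGF and angiopoietin signalling, of 10 junction genes, of 6 hypoxia genes and of the 10 endothelial genes that the rule did not use, 0 were called in any of the 6 comparisons. None of 12 proliferation genes reached the level for testing.

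The capillary cells were not uniform, and a count of *Ehd3* (chr17:73804134-73832094, plus strand), an endocytic protein that marks glomerular endothelium in the kidney, divided them. It was found in 907 of 1913 control cells, in 546 of 1083, 67 of 165 and 56 of 248 cells with vehicle and in 487 of 1222, 570 of 1194 and 119 of 749 cells with entospletinib. In cells thinned to 500 counts the shares were 12.8% in the control pool, 12.9%, 15.2% and 5.65% in the vehicle pools and 14.5%, 20.8% and 9.10% in the entospletinib pools, against 0.17% to 0.56% of the cells that are not endothelial. The vehicle pool at day 14 had the lowest share and the entospletinib pool at day 7 the highest.

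Several genes went with *Ehd3* within a pool. *Plat*, tissue plasminogen activator, was at 271 CPM in the control cells with an *Ehd3* count and 103 CPM in those without, and at 768 against 141 CPM with entospletinib at day 7. *Mapt*, the microtubule protein tau, was at 37.6 against 10.4 CPM in the control and 284 against 25.6 CPM with entospletinib at day 7. *Pi16*, a peptidase inhibitor, was at 30.7 against 7.25 CPM and 224 against 17.7 CPM in the same pools. For *Plat*, *Mapt*, *Pi16* and *Lpl* the cells with *Ehd3* were higher in all 7 pools. This was not particular to them, as *Kdr*, *Emcn* and *Plpp1* were also higher in these cells in all 7 pools, by smaller margins. In the control *Kdr* was at 1632 against 1302 CPM and *Emcn* at 2162 against 2057 CPM. The share of all genes with this direction in every pool was not counted.

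*Lpl* showed the pattern across conditions. In cells with *Ehd3* it was at 77.7 CPM in the control pool, 85.9, 154 and 163 CPM in the vehicle pools and 282, 479 and 631 CPM in the entospletinib pools. In cells without, it was at 33.9 CPM, then 29.3, 48.3 and 94.7 CPM, and 61.1, 52.6 and 94.4 CPM. On each day both treatments were further apart in the cells with *Ehd3*, a difference that was not tested. *Plvap*, which the rule used, was at 1020.2 CPM with and 1018 CPM without *Ehd3* in the control. With *Ehd3* it was higher at vehicle day 1 (1329 against 1195 CPM) and lower in the other injured pools. At entospletinib days 7 and 14 it was at 663 against 836 CPM and 514 against 801 CPM. *Zbtb16* did not divide this way, at 468 against 417 CPM in the control and 856 against 769.8 CPM with entospletinib at day 14, nor did *Fkbp5*, at 304 against 299.9 CPM and 529.7 against 762 CPM. In the vehicle pools, where *Zbtb16* was low, neither kind of cell was higher throughout. Cells with an *Ehd3* count are also the deeper cells of a pool (a median of 3432 against 2727.5 counts in the control), and CPM corrects for the sum and not for which cells are caught.

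**Figure D5:**
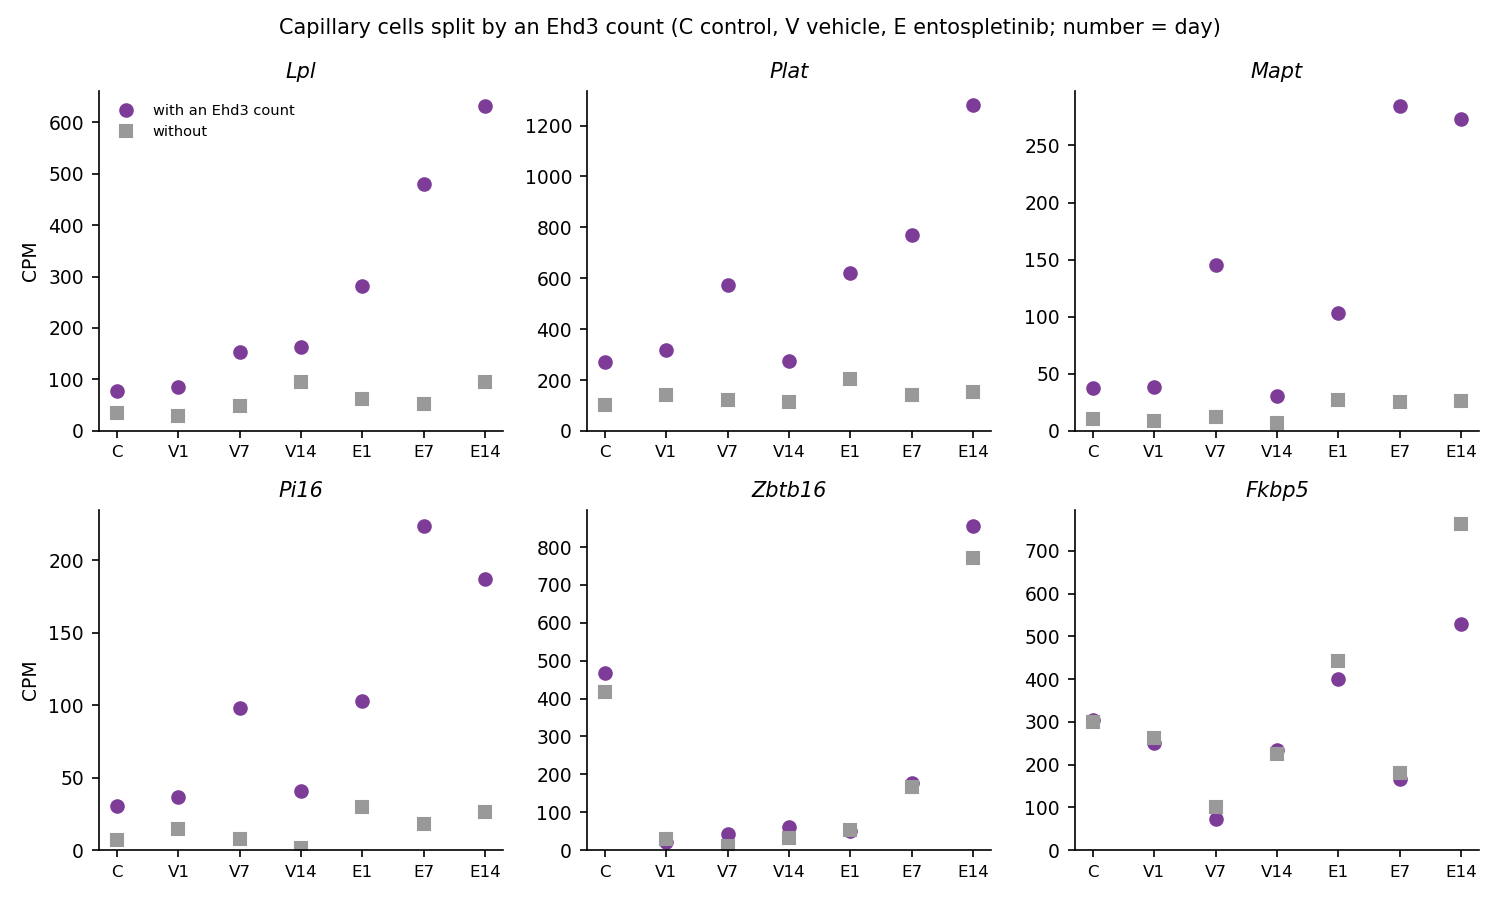
Levels of 6 genes (CPM, summed over cells) in capillary cells with an *Ehd3* count (purple circles) and without (grey squares) in each pool. *Lpl*, *Plat*, *Mapt* and *Pi16* lie higher in the cells with *Ehd3* in all 7 pools, while *Zbtb16* and *Fkbp5* are not higher in one kind of cell throughout.

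In all capillary cells of a pool, *Pi16* (chr17:29317680-29330593, plus strand) was at 19.8 CPM in the control pool, 26.98, 51.8 and 12.1 CPM in the vehicle pools at days 1, 7 and 14, and 62.8, 126 and 57.9 CPM in the entospletinib pools at those days. *Mapt* (chr11:104231390-104332090, plus strand) was at 24.9 CPM in the control pool, 25.6, 76.6 and 13.4 CPM in the vehicle pools and 61.5, 161 and 74.8 CPM in the entospletinib pools. The vehicle pool at day 14 was the lowest for both. *Plat* was at 193 CPM in the control pool, 241, 339.7 and 156 CPM in the vehicle pools and 393, 469 and 376 CPM in the entospletinib pools. *Nostrin*, which regulates the traffic of nitric oxide synthase, was at 187 CPM in the control pool, 50.2, 126 and 85.9 CPM in the vehicle pools and 90.7, 173 and 218 CPM in the entospletinib pools. The entospletinib pool was above the vehicle pool of its day for all 4 genes at all 3 days, and *Pi16*, *Mapt* and *Plat* were above the control in every entospletinib pool. These genes were named partly because they were called higher with entospletinib, so the direction follows in part from the choice. The share of all tested genes with it on all 3 days was not counted. *Pi16* and *Mapt* were also called higher with vehicle than in the control at day 7 (1.48 and 1.71; *Mapt* 0.95 without sublibrary s8), and *Nostrin* was called lower with vehicle at day 1 (-2.01). Outside the endothelium *Mapt* was at 44.4 CPM in the control pool, 9.77, 10.9 and 7.20 CPM in the vehicle pools and 17.1, 38.7 and 33.6 CPM in the entospletinib pools. *Pi16*, *Mapt*, *Plat* and *Nostrin* were called higher with entospletinib than with vehicle at day 14 (2.25, 2.47, 1.32 and 1.39). *Pi16* was called at day 1 as well (1.34; 0.85 in thinned cells). In thinned cells the ratio of *Plat* at day 14 became 0.28 and that of *Nostrin* 0.93. Because the share of cells with *Ehd3* also differed between these pools, the sums alone do not separate a change per cell from one in the mix. Within the cells with an *Ehd3* count, and within those without, all 4 genes were higher with entospletinib on all 3 days. In cells with *Ehd3*, *Pi16* went from 36.4 (vehicle) to 103 CPM (entospletinib) at day 1. At day 7 it went from 98.2 to 224 CPM, and at day 14 from 40.8 to 187 CPM. The vehicle value at day 14 rests on 8 counts. Other differences in the mix were not tested.

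Only the 3 days give a test in which treatment is repeated. edgeR's quasi-likelihood test over the 6 injured pools, with the day as a term and Benjamini-Hochberg adjustment, called 22 of 11387 genes higher (0.193%) and 11 lower (0.0966%) with entospletinib at an adjusted p under 0.05. It treats the pools of different days as replicates of the treatment difference. *Lpl* was higher by 1.23 (log2, SE 0.16, edgeR adjusted p = 0.006099), *Pi16* by 1.42 (SE 0.21, 0.0163), *Fkbp5* by 1.11 (SE 0.17, 0.0163) and *Mapt* by 1.41 (SE 0.22, 0.02134), each higher at 3 of 3 days. *Klf2* was higher by 0.81 (SE 0.15, edgeR adjusted p = 0.04502). *Zbtb16*, whose differences were large and unequal between days, was higher by 2.57 (SE 0.85) with an edgeR adjusted p of 0.5729.

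Among the 11 genes lower with entospletinib, *Tnc*, the matrix protein tenascin C, had the largest change (-6.40, SE 0.69, edgeR adjusted p = 0.001644). Its 73 counts in the vehicle pools lay in 10 cells, 23 of them in 1 cell at day 7. *Thbs1* was lower by 1.45 (SE 0.16, 0.001644) and *Edn1* by 1.83 (SE 0.34, 0.04502). As given above, *Thbs1* was at a higher level outside the endothelium at vehicle day 1. Of the 22 genes called higher, 3 were mitochondrial and 5 genes or pseudogenes of ribosomal proteins, and 12 had a higher level outside the endothelium in all 3 entospletinib pools, against 31.8% of all tested genes. Of the 11 called lower 8 had a higher level outside in all 3 vehicle pools, against 26.5% of all tested genes. *Cd44*, 1 of these 8, was lower by 0.85 (SE 0.15, edgeR adjusted p = 0.04502), and the adjusted p was 0.7906 with marked doublets removed. The haemoglobin genes *Hba-a1* and *Hba-a2* were also called higher, and the red cell genes summed to 112 and 63.2 CPM with entospletinib at days 1 and 14 and to 36.8 CPM or less in the other pools. *Bank1*, an adaptor protein of B cells, was called higher (1.54, SE 0.27, edgeR adjusted p = 0.04488, and 0.3683 without marked doublets), and 4 B cell genes summed to 15.2, 8.29 and 14.8 CPM in the vehicle pools and 38.4, 19.4 and 74.8 CPM in the entospletinib pools. Genes of tubule cells were not called, but all 5 fitted genes of the proximal tubule and all 4 of the distal nephron had fitted differences above 0 (medians of 0.86 and 1.16, log2). The 5 listed distal nephron genes summed to 77.0, 51.8 and 44.3 CPM in the vehicle pools and 104, 174 and 181 CPM in the entospletinib pools, and the 6 of the proximal tubule to 51.4, 22.8 and 40.3 CPM and to 54.6, 39.8 and 93.7 CPM. What part RNA of these other cells has in the genes called higher was not tested. *Lpl*, *Pi16*, *Fkbp5*, *Mapt* and *Thbs1* kept their calls with marked doublets removed and with DESeq2, and *Klf2* did not (adjusted p of 0.07139 with edgeR and 0.09889 with DESeq2). Without day 7 the same test called 1 gene and none of these, without day 1 it called 182 and without day 14 it called 21.

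The test of the vehicle pools against the control, in which the days stand in for replicates and the single control is assumed to vary like the other groups, called 0 genes higher (0%) and 0 lower (0%) of 13574 by edgeR. It had 515 genes at an unadjusted p under 0.05, and DESeq2 called 21. On simulated counts edgeR recovered 70.4% of genes changed by 2 and 42.2% of genes changed by 1 on the log2 scale (12777 genes fitted). The simulation took totals and mean levels from the pools, but used a fixed spread between pools and the same change on each day. How many changed genes would be recovered from the real pools, whose days differ, is not known from it.

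*Syk*, the target of the drug, was at 24.3 CPM in the control pool, 124, 45.6 and 92.6 CPM in the vehicle pools and 80.6, 39.8 and 58.99 CPM in the entospletinib pools in the capillary cells. Outside the endothelium it was at 405 CPM in the control pool, 882, 563 and 569 CPM in the vehicle pools and 552, 472 and 443 CPM in the entospletinib pools. The capillary cells were below the other cells in each pool, and all 6 injured pools were above the control. *Syk* was called higher with vehicle at days 1 and 14 (2.23 and 1.94), which became 0.85 at day 1 under the stricter marker limits and 0.66 at day 14 without marked doublets. In thinned cells a *Syk* count was found in 0.84% to 3.14% of the capillary cells and in 17.4% to 34.3% of the other cells, and without thinning in 115 of 1913 control cells and 177 of 1083 cells of the vehicle pool at day 1. Both levels were highest in the vehicle pool at day 1.

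Finally, the capillary cells were set beside the other kind of endothelial cell in each pool, as a description, since both were chosen by expression. Of 3946 genes compared, 326 were higher and 293 lower in the capillary cells in all 7 pools. Among the former were *Ehd3* (368 against 99.9 CPM over all pools), *Npr3*, the clearance receptor of natriuretic peptides (429 against 144 CPM), *Tll1*, a metalloprotease (439.5 against 135 CPM), and *Il33*, an alarmin (94.6 against 25.7 CPM). Among the latter were *Aqp1*, the water channel of descending vasa recta (5.18 against 197 CPM), *Fbln5*, an elastic fibre protein (5.18 against 143 CPM), and *Gja5*, an arterial connexin (6.45 against 87.8 CPM). The endothelin gene *Edn1* was also lower in the capillary cells (17.8 against 90.5 CPM).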

How the data were processed

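Live cells from kidneys, enriched for leukocytes, had been barcoded by split-pool ligation (Parse Evercode WT v2) in 7 conditions and 8 sublibraries. The authors deposited counts of transcripts per gene and cell (57010 genes, 120281 barcodes), made with the Parse pipeline, version 1.1, on mm10. The annotation release is not given in the sources used here, and gene positions come from GENCODE M21 on the same build (52029 of 57010 gene identifiers matched). Conditions were taken from the deposited cell table, and the E_ prefix there was read as entospletinib. The deposited samples are not tied to the sublibraries, so each condition is 1 pool.

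Cells were selected by the rule given above with Python 3.11.15, and their counts were summed per pool. Genes averaging 50 CPM or more, with at least 100 counts, were compared as log2 ratios of CPM after 0.5 was added to each count, minus the median over those genes, and called at 2-fold in all cells and in both sets of 4 sublibraries (s1 to s4, s5 to s8). Clopper-Pearson and Poisson 95% intervals cover counting error only. A count of 0 allows up to 3 counts. Between pools of different days edgeR 4.0.16 (quasi-likelihood, Benjamini-Hochberg) was run on the summed counts, with DESeq2 1.42.0 as the alternative. It was tested on simulated counts, where 60.7% and 90.9% of genes changed by 1 and 2 (log2) were recovered for entospletinib against vehicle (11088 genes). These counts had a fixed spread and the same change on each day, so the recovery does not carry over to the real pools.

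Doublets were scored with Scrublet in scanpy 1.11.5. Its automatic threshold marked 30 of 90855 cells (0.033%), so a score of 0.15 was used, chosen after seeing the data, which marked 3718 cells (4.09%). Doublets were kept and removed in an alternative, together with thinning to 500 counts, other limits and leaving out each sublibrary or day.

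The members, gene lists and tests were chosen with earlier results of these data known. Named genes were, for each list, up to 4 called members or else members with high levels, the 5 highest and 5 lowest called genes of each comparison, genes in 1 direction at all 3 days, the 5 leading genes of each edgeR direction, and *Syk*. *Inhbb*, *Osmr*, *Zfp521*, *Sema5a* and the genes set beside the other endothelial kind were chosen after their values were seen. Not every gene the rule names is printed.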

Additional observations from a re-analysis of the deposited data

Results flagged for a closer look

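For 5 of the genes examined one by one, entospletinib differed from vehicle in one direction in all 8 sublibraries on 1 day and in the opposite direction in all 8 on another, and the difference between days was not tested. The values given are those of the days on which all 8 went the same way. Non-coding RNAs were among them. *Rpph1*, the RNA of ribonuclease P, differed by 2.84 at day 1 and -1.90 at day 7 (relative log2). *Rn7sk*, the 7SK RNA, differed by 1.04, 0.97 and -2.01 at days 1, 7 and 14, and *Scarna2*, a small Cajal body RNA, by -2.34 at day 7 and 1.88 at day 14. *Il31ra*, an interleukin 31 receptor subunit, differed by 2.67, -1.15 and 2.57, and *Ccnb1ip1*, a ubiquitin ligase, by 1.32 at day 1 and -2.80 at day 7. *S100a9* was also called in opposite directions, at 1.05 at day 1 and -1.65 at day 7, without all 8 sublibraries going the same way on both days, and its value at day 1 was 0.20 without marked doublets.

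Levels of these genes in the cells that are not endothelial differed between pools too. *Rpph1* was at 64.6 CPM in the control pool, 22.8, 175 and 80.9 CPM in the vehicle pools and 173, 42.4 and 129 CPM in the entospletinib pools. *Il31ra* was at 289.5 CPM in the control pool, 99.4, 716 and 298 CPM in the vehicle pools and 584, 317 and 985 CPM in the entospletinib pools. In the capillary cells *Rpph1* was at 32.01 CPM in the control pool, 15.7, 78.7 and 51.02 CPM in the vehicle pools and 104, 23.2 and 46.3 CPM in the entospletinib pools. *Il31ra* was at 202 CPM in the control pool, 64.3, 339.7 and 168 CPM in the vehicle pools and 376, 167 and 966 CPM in the entospletinib pools in them. For *Il31ra* both kinds of cell had the same direction between treatments on all 3 days, and for *Rpph1* at days 1 and 7 but not at day 14. The part of the pool or of its wells in these values was not tested.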

How the results depend on the processing

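Over the calls of the named and listed genes and all alternatives, the call was kept in 2486 values, lost in 489 with the direction kept, and reversed in direction in 8. Thinned to 500 counts, *Fn1* became -1.19 (vehicle over control) and 0.75 (entospletinib over vehicle) and *Atp1b1* -0.44 (entospletinib over vehicle), all at day 7. With doublets removed, vehicle over control at day 7 became -0.11 for *Antxr2*, -0.17 for *Cd44* and -0.15 for *Plek*, and entospletinib over vehicle became 0.19 for *Il1b* and 0.33 for *Plek*. The cause was not tested. The share ratios kept their direction. Cells with neutrophil counts were left out of the denominator but not of the numerator in 1 alternative. It gave -0.48, -2.06 and -3.26 for vehicle over control and 0.13, 1.95 and 1.62 for entospletinib over vehicle at days 1, 7 and 14. Stricter marker limits gave -2.002 (vehicle over control, day 1), cells with ribosomal protein genes under 1.5% gave 1.13 and 2.34 (entospletinib over vehicle, days 1 and 14), and more than 500 genes gave 2.37 (day 14). Capillary cells were 91.2% (control) and 87.8% (entospletinib, day 1) of both kinds in thinned cells. Counts of genes past 2-fold, in the order vehicle over control at days 1, 7 and 14 and then entospletinib over vehicle, were 226, 136, 207, 23, 133 and 254 with a limit of 20 CPM, 53, 21, 32, 6, 23 and 43 with 100 CPM, and 1314, 1564, 1733, 765, 1806 and 1664 with none. At vehicle day 7 the count was 25 with doublets removed, 27 with stricter marker limits and 114 in thinned cells, at vehicle day 14 it was 47 with stricter limits, for entospletinib at day 1 it was 7 by plain CPM ratios, and in thinned cells it was 132 and 144 at days 7 and 14. For entospletinib against vehicle edgeR called 267 genes with no filter, 15 with doublets removed and 0 with no day term (602 at an unadjusted p under 0.05), and 1 to 182 with a day left out. Of the edgeR values of named genes under alternatives, 66 kept their side of the threshold and 46 lost it. For vehicle against control DESeq2 called 21, and edgeR 0 to 23 with a day left out. Depth limits the vehicle pools at days 7 and 14, where 3 counts correspond to 6.21 and 4.03 CPM, and the entospletinib pool at day 14. Pools were paired by day, through the day term of edgeR and the pairs of the sign-flip test. No paired analysis was possible by replicate number, because each condition is 1 pool and the numbers of the deposited samples are not those of the pools.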
